A study of Mus musculus with 8 samples.

Results

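The 10 genes described here belong to the Wnt signalling pathway and were read from the deposited table of normalized read counts of activated muscle stem cells (ASCs). ASCs is the label of the samples and stands here for the cells as sorted. They were chosen by symbol, with earlier results of these data known. They are 7 secreted antagonists (Sfrp1, Sfrp2, Sfrp4, Frzb, Wif1, Dkk2 and Dkk3), 2 receptors (Fzd4 and Fzd7) and the feedback gene Axin2. All 10 were found among the 18877 genes of the table. The study compared 4 libraries from wild-type mice with 4 from mfn2-/- mice, in which a floxed allele of mitofusin 2, a mitochondrial fusion protein, was combined with Pax7-Cre(ERT2), a tamoxifen-inducible recombinase under the control of the muscle stem cell gene Pax7. All animals of both groups carried mito-Dendra2, a fluorescent protein switched on by the same driver, and received tamoxifen (75 mg/kg daily for 5 days) before the tibialis anterior muscle was injured with barium chloride (50 µL of 1.2%). Living Dendra2+ CD34- cells were sorted 2 days after injury. The ages of the animals and whether each library came from 1 animal are not given in the sources used here, so the spread between libraries may be partly technical.

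Wnt proteins are secreted ligands that bind Frizzled receptors (Fzd) together with the co-receptors Lrp5 and Lrp6, which stabilizes beta-catenin in the cell and turns on genes through TCF/LEF factors. The secreted Frizzled-related proteins (Sfrp1, Sfrp2, Sfrp4 and Frzb) and Wif1 bind Wnt ligands outside the cell, Dkk2 acts on the co-receptors, and Dkk3 is a divergent Dickkopf protein whose part in Wnt signalling is less settled. In muscle, connective tissue cells and the stem cells themselves both make Wnt pathway components, Fzd7 is known as a receptor of Wnt7a in muscle stem cells, and Axin2 is a beta-catenin target that feeds back on the pathway.

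Depth ran from 1880464 to 7508215 reads per library, so that a single read counted as 0.534 to 2.27 normalized reads. Values of 3 reads or fewer are called here the floor. Mfn2 itself measured 229 ± 19.98 in wild-type and 126 ± 31.4 normalized reads in mfn2-/- libraries (mean ± SD, n = 4 per group) and the groups did not overlap, although its limma adjusted p was 0.0848. Of the myogenic markers all 12 were in the table, and Pax7 measured 630 to 730 in wild-type and 582 to 803 in mfn2-/- libraries. Reads of Y-linked genes were found in replicates 3 and 4 of the wild-type and in replicates 1 and 2 of the mutant with 0 in the other 4 libraries, so changes were also computed among libraries of each kind. For all 10 genes the difference had the same sign in both kinds, each with only 2 libraries per group. The share of all genes with the same sign in both kinds was not computed.

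Nearly all of the secreted antagonists were far lower in mfn2-/- than in wild-type libraries. Which of the sorted cells made these transcripts cannot be told from bulk libraries. By limma, which tests the log2 of each gene's normalized count plus 1 over all 11754 genes with a mean of at least 10, 6 of the 7 antagonists fell at an adjusted p under 0.05 and Frzb did not pass. Fzd4 rose, and Fzd7 and Axin2 were not called. In total 7 of the 10 genes were called, 6 of them lower and 1 higher. Of all genes tested 10.4% were called, 6.36% lower and 3.99% higher. The 10 genes were chosen with earlier results of these data known, so these shares do not measure an excess. The median log2 change of the 10 genes was -3.47 and that of all genes tested was -0.16. Groups did not overlap for 7 of the 10 genes, and for 19.5% of all genes tested, 12.2% lower and 7.36% higher in the mutant. The plot of the 10 genes by library shows both the distance between the groups and the uneven wild-type values.

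**Figure D1:**
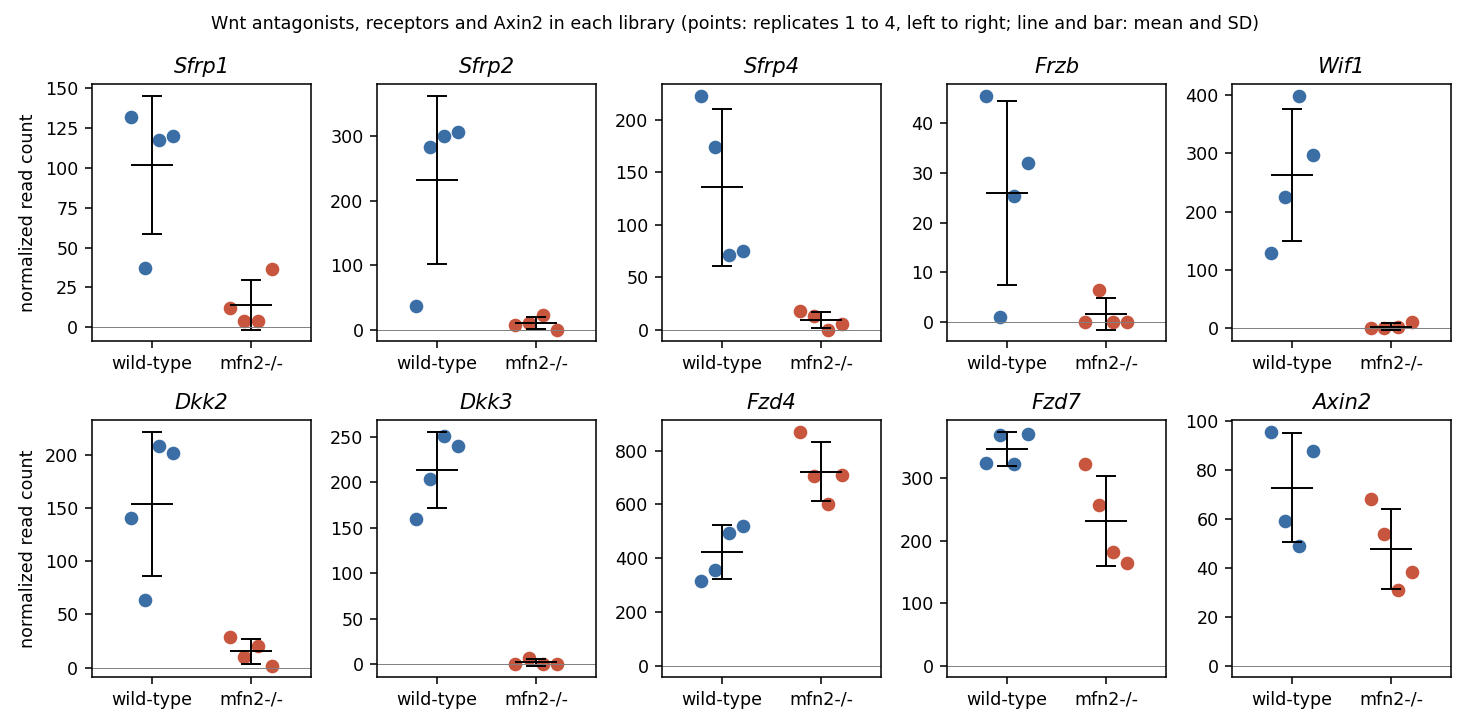
Normalized read counts (linear axes that differ between panels) of the 7 antagonists, 2 receptors and Axin2 in wild-type (blue) and mfn2-/- (red) libraries, with 1 point per library and the mean and SD of 4 libraries per group. The mfn2-/- values of Wif1 lie between 0 and 11.0 and those of Dkk3 between 0 and 7.11, while Fzd4 is higher in all 4 mfn2-/- libraries.

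Sequence before the start site is shown for Sfrp2, Wif1 and Dkk2, which fell together, and for Fzd4, which rose. It was taken from RefSeq promoters of GRCm38.p6, which list 7 of the 10 genes (Sfrp1, Sfrp4 and Dkk3 are not among them), and each line stops before the GENCODE M21 gene start. Capitals mark CTTTGA (TCF/LEF), CAGCTG (an E-box of MyoD), ACGTG (the core of the hypoxia response element) or TATAAA (the TATA box) on either strand, and the 4 genes all lie on the plus strand.
Sfrp2, chr3:83766071-83766320: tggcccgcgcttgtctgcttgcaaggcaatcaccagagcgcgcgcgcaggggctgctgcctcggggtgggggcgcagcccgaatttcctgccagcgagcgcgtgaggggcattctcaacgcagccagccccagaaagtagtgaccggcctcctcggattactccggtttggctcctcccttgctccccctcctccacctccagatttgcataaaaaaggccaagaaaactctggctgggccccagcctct
Wif1, chr10:121033754-121033959: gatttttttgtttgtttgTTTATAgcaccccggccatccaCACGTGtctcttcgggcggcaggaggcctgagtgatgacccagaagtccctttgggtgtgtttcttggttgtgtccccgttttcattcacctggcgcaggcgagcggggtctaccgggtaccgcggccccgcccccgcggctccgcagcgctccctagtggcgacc
Dkk2, chr3:132085042-132085291: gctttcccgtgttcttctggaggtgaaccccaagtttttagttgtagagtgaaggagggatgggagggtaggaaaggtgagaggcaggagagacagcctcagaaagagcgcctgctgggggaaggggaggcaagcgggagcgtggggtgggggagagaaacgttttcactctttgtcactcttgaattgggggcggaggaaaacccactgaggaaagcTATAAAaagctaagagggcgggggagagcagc
Fzd4, chr7:89404116-89404354: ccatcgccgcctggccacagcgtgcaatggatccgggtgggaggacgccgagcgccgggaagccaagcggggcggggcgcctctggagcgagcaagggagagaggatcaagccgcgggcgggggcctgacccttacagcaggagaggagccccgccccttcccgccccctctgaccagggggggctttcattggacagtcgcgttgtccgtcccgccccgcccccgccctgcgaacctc

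Over the 250 bases before the RefSeq start, the windows shared no searched motif beyond the TATA letters. TATAAA was found in Wif1 and Dkk2, 2 of the 7 windows, and in 12.4% of all 32851 windows. In Dkk2 it began 32 bases before the start, and in Wif1 it lay on the opposite strand and far upstream. ACGTG was found in Wif1 alone, on both strands as 1 palindrome, and in 16.6% of all windows. CTTTGA and CAGCTG were each found in Frzb alone, and in 13.8% and 13.0% of all windows. These searches describe letters in a short window, and Axin2, Fzd4, Fzd7 and Sfrp2 held none of the 4 motifs there. The GC content of the 7 windows ranged from 55.6% to 72.8%, and the median of all windows was 52.4%.

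Wif1 and Dkk3 showed the widest separation. Wif1 encodes Wnt inhibitory factor 1 (GRCm38, GENCODE M21, chromosome 10, 121033960 to 121100650, plus strand). It measured 130, 225, 398 and 298 normalized reads in wild-type replicates 1 to 4 and 0, 0, 2.21 and 11.0 in mfn2-/- replicates 1 to 4. The highest mfn2-/- value came from 6 reads, and 3 of the 4 mfn2-/- libraries were at the floor. The mean fell from 262 ± 113.4 to 3.30 ± 5.23, which is 79.5-fold lower, and the log2 change was -6.61 ± 1.02 (SE) at an adjusted p of 0.00115 by limma. The change was -8.43 among libraries with Y-linked reads and -4.79 among those without.

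Dkk3 encodes Dickkopf 3 (chromosome 7, 112116017 to 112159057, minus strand). It measured 159, 203, 252 and 240 in the wild-type libraries. In mfn2-/- libraries only replicate 2 had any reads, 9 in all or 7.11 normalized reads, and the others had 0. Dkk3 was the most even antagonist among wild-type libraries, with an SD of 19.5% of the mean. Its mean fell from 214 ± 41.7 to 1.78 ± 3.56, which is 120-fold lower, and the log2 change was -6.97 ± 1.02 (SE) at an adjusted p of 0.000831 by limma. Wif1 and Dkk3 passed the threshold in all 21 alternative settings, with adjusted p of at most 0.0119 and 0.00792.

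The Frizzled-related proteins share a cysteine-rich domain with the Frizzled receptors, through which they hold Wnt ligands. Sfrp2 (chromosome 3, 83766321 to 83774316, plus strand) measured 36.4, 284, 301 and 307 in wild-type and 6.67, 10.3, 22.1 and 0 in mfn2-/- libraries. Wild-type replicate 1 stood far below the other wild-type libraries but above every mfn2-/- library. Sfrp2 was 23.8-fold lower in the mutant (232 ± 130.7 against 9.76 ± 9.27), and the log2 change was -4.73 ± 1.08 (SE) at an adjusted p of 0.0142 by limma. The adjusted p rose to 0.0545 without wild-type replicate 2, 0.065 without replicate 3 and 0.062 without replicate 4. It was 0.0558 with a pseudocount of 0.1 and 0.0519 with no intensity trend, so the call was lost in 5 of 21 settings. Sfrp2 had 0 reads in mfn2-/- replicate 4, and its log2 change was -3.82 without that library. An antisense gene, Gm26771, overlaps Sfrp2, and whether counting used the strand is not stated.

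Sfrp4 (chromosome 13, 19623104 to 19632994, plus strand) measured 223, 174, 71.0 and 74.8 in wild-type and 17.3, 12.6, 0 and 5.50 in mfn2-/- libraries. Its wild-type values ran opposite to those of Wif1 and Dkk3, since replicates 1 and 2 were the high ones and replicates 3 and 4, which held Y-linked reads, were the low ones. The mean fell 15.3-fold, from 136 ± 75.2 to 8.87 ± 7.66, and the log2 change was -4.25 ± 1.04 (SE) at an adjusted p of 0.0199 by limma. The change was -2.22 with Y-linked reads and -6.28 without. The adjusted p was 0.0585, 0.0666 and 0.05002 when wild-type replicate 1, 2 or 3 was left out, each above the threshold. With a pseudocount of 0.1 it was 0.0736, so the call was lost in 4 of 21 settings.

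Sfrp1 (chromosome 8, 23411502 to 23449632, plus strand) gave the weakest call. It measured 132, 37.3, 118 and 120 in wild-type and 12.0, 3.95, 3.68 and 36.7 in mfn2-/- libraries. The lowest wild-type value (37.3, replicate 2) and the highest mfn2-/- value (36.7, replicate 4) were nearly equal, so the groups were separated by less than 1 normalized read. Sfrp1 was 7.22-fold lower (102 ± 43.3 against 14.1 ± 15.5), and the log2 change was -3.16 ± 0.92 (SE) at an adjusted p of 0.0457 by limma. The call was lost in 12 of 21 settings, among them leaving out wild-type replicate 1 (0.101), 3 (0.141) or 4 (0.139) and mfn2-/- replicate 1 (0.0713), 2 (0.0959) or 3 (0.0964).

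Frzb, also called Sfrp3 (chromosome 2, 80411970 to 80447625, minus strand), was the antagonist that did not pass. It measured 45.5, 1.04, 25.3 and 32.1 in wild-type and 0, 6.32, 0 and 0 in mfn2-/- libraries. Wild-type replicate 2, with 1 read, lay below mfn2-/- replicate 2, with 8 reads, so the groups overlapped. The log2 change was -3.36 (95% interval -6.25 to -0.48, limma adjusted p 0.135), and Frzb passed in 0 of 19 settings that tested it.

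Dkk2 (chromosome 3, 132085292 to 132180304, plus strand) encodes a Dickkopf protein that binds Lrp5 and Lrp6. It measured 141, 63.3, 209 and 202 in wild-type and 28.7, 10.3, 19.9 and 1.83 in mfn2-/- libraries. Every wild-type library was above every mfn2-/- library, and 3 of the mfn2-/- libraries were above the floor, the most reads being 43 in replicate 1. The mean fell 10.1-fold, from 154 ± 67.8 to 15.2 ± 11.6, and the log2 change was -3.57 ± 0.86 (SE) at an adjusted p of 0.0186 by limma. The changes of -3.50 with and -3.63 without Y-linked reads were close to each other. Dkk2 had 1 read in mfn2-/- replicate 4, and its log2 change was -2.88 without that library. Without replicate 3 or 4 of the wild-type the adjusted p was 0.0831 or 0.0798.

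**Figure D2:**
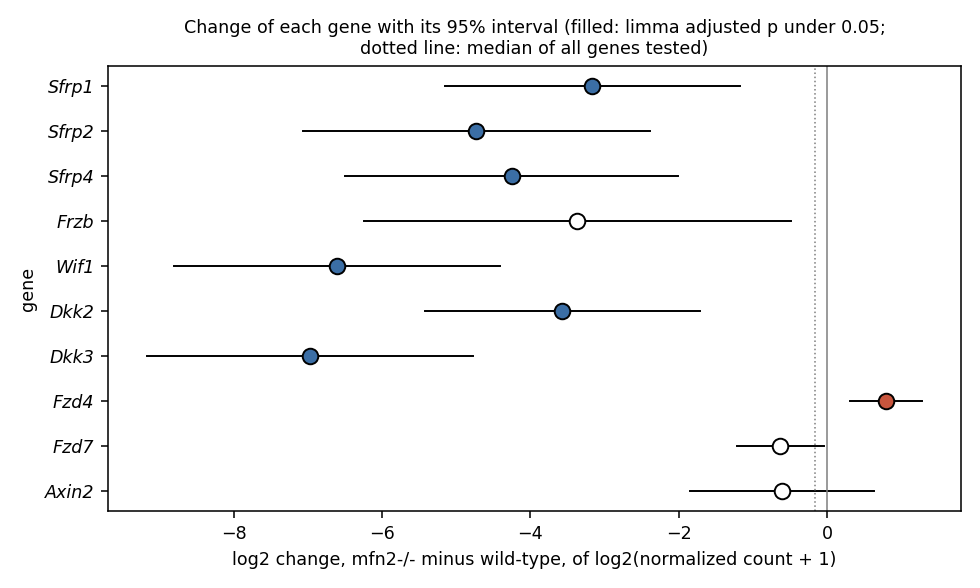
Log2 change of each gene (mfn2-/- minus wild-type, horizontal axis) with its 95% interval from limma. Filled points passed an adjusted p of 0.05 over all 11754 genes tested, and the intervals of Sfrp1 to Dkk3 lie below 0 while that of Axin2 spans 0.

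Both receptors had at least 90 reads in every library, and Fzd4 passed the test. Fzd4 encodes a Frizzled receptor that also serves the ligand norrin (chromosome 7, 89404355 to 89413134, plus strand). It measured 316, 357, 495 and 518 in wild-type and 869, 707, 602 and 711 in mfn2-/- libraries. All mfn2-/- libraries were above all wild-type libraries. Fzd4 was 1.71-fold higher (421 ± 100.1 against 722 ± 110), and the log2 change was 0.79 ± 0.23 (SE; 95% interval 0.31 to 1.28) at an adjusted p of 0.0407 by limma. The rise was 0.63 among libraries with Y-linked reads and 0.96 among those without. The direction held in all 21 settings, between 0.61 and 1.00, but the call was lost in 11. It was lost when wild-type replicate 1 (0.0874), 2 (0.0965) or 3 (0.0584) or mfn2-/- replicate 1 (0.12), 2 (0.0895), 3 (0.0542) or 4 (0.0507) was left out.

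Fzd7 (chromosome 1, 59482424 to 59486955, plus strand) measured 325, 370, 323 and 371 in wild-type and 323, 258, 182 and 165 in mfn2-/- libraries. It was the most even of the 10 genes in wild-type libraries, with an SD of 7.75% of the mean. The groups met at 1 point, since mfn2-/- replicate 1 equalled wild-type replicate 3 to within 1 normalized read, and the other mutant libraries were lower. The means were 347 ± 26.9 and 232 ± 72.8, and the log2 change was -0.63 (95% interval -1.21 to -0.05, limma adjusted p 0.168). Fzd7 passed in 0 of 21 settings. The values among libraries with Y-linked reads differed by -0.26 and those among the others by -0.998.

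Axin2 (chromosome 11, 108920349 to 108950783, plus strand) was weakly expressed and did not separate the groups. It measured 95.5, 59.1, 49.0 and 87.6 in wild-type and 68.0, 53.7, 31.0 and 38.5 in mfn2-/- libraries. The ranges overlapped widely. The log2 change was -0.61, and its 95% interval of -1.85 to 0.63 includes both no change and a fall of more than the size of the Fzd4 rise (limma adjusted p 0.553). The antisense gene Gm11670 overlaps Axin2.

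An exact two-sided permutation test of each gene over the 70 ways to divide 8 libraries gave p = 0.0286, the smallest this design allows, for the 7 genes that limma called. Groups that do not overlap always give this p, as 19.5% of all genes tested would. The test therefore restates the separation of these genes and adds no support to their calls. The exact p was 0.0571 for Frzb, 0.0571 for Fzd7 and 0.143 for Axin2.

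Levels of different genes were compared per kilobase of exon, with exon lengths from GENCODE M21. In wild-type ASCs the order of the mean level was Wif1 (108 ± 46.7 normalized reads per kb), Sfrp2 (108 ± 60.7), Fzd7 (76.6 ± 5.94), Dkk3 (63.6 ± 12.4), Fzd4 (62.7 ± 14.9), Dkk2 (41.6 ± 18.3), Sfrp4 (32.5 ± 17.999), Sfrp1 (23.2 ± 9.91), Axin2 (13.2 ± 4.05) and Frzb (8.02 ± 5.75). The ranges of each pair of neighbours in this order overlapped, but genes farther apart did not all overlap. Fzd7 (71.2 to 81.8) lay above every value of Dkk2 (17.1 to 56.4), Sfrp4 (17.0 to 53.3), Sfrp1 (8.54 to 30.2) and Frzb (0.320 to 14.1), and Fzd4 (47.0 to 77.1) lay above every value of Sfrp1 and Frzb. In mfn2-/- ASCs the order opened with Fzd4 (107 ± 16.4), Fzd7 (51.1 ± 16.1) and Axin2 (8.68 ± 2.99). The ranges of Fzd4, Fzd7 and Axin2 did not overlap each other there, and the antagonists followed between 4.53 ± 4.30 for Sfrp2 and 0.488 ± 0.976 for Frzb, each overlapping its neighbour.

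**Figure D3:**
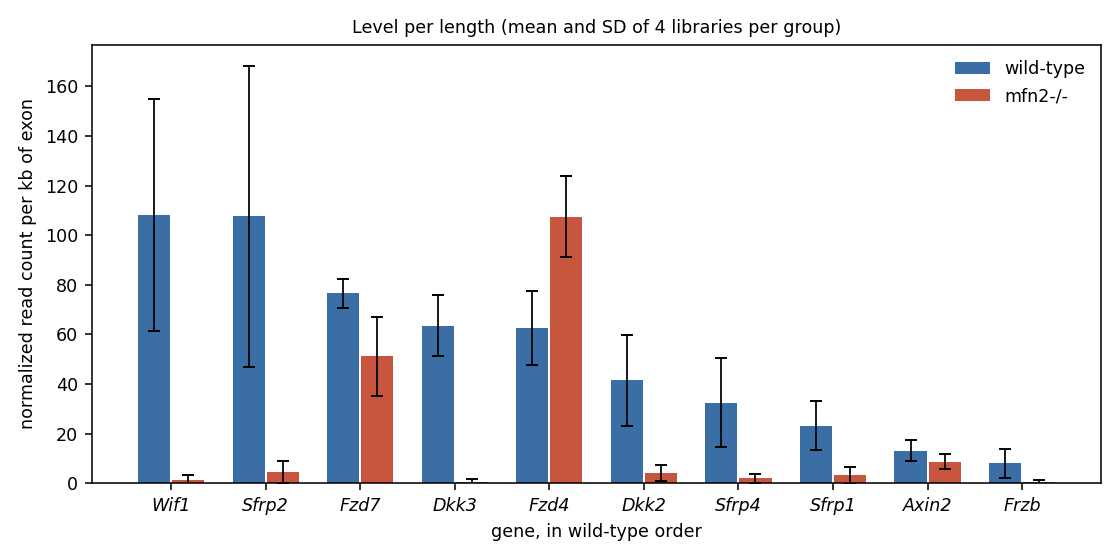
Mean normalized read count per kilobase of exon (vertical axis) of the 10 genes in wild-type order, with the SD of 4 libraries per group and error bars cut at 0. In wild-type the antagonists Wif1 and Sfrp2 stand beside Fzd7 and Fzd4, and in mfn2-/- the tallest bars are Fzd4 at 107 and Fzd7 at 51.1.

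Markers of connective tissue and tendon cells moved with the antagonists. The 7 antagonists together gave 866, 988, 1373 and 1274 normalized reads in wild-type replicates 1 to 4 and 64.7, 50.6, 47.9 and 55.0 in mfn2-/- replicates 1 to 4. The mutant sums rested on 97, 64, 65 and 30 reads, and 13 of the 28 single mutant values were at the floor. The sum was 20.6-fold lower in mfn2-/- ASCs. In bulk RNA, fewer cells of a type and less RNA per cell cannot be told apart.

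All 19 fibroadipogenic markers were in the table, and 15 of the 17 tested fell. Their sum ranged from 202269 to 261676 in wild-type and from 6632 to 10861 in mfn2-/- libraries, 26.5-fold lower on average. Different genes carried it. In wild-type, Col1a1 made up 106037 of the mean sum of 231581, and Gsn 17685. In mfn2-/- libraries Gsn made up 5295 of the mean sum of 8734, and Col1a1 334. The ratio of antagonists to markers given below depends on this make-up. All 10 tenocyte markers fell, and their sum went from between 40350 and 63414 to between 408 and 779, 86.5-fold lower. Pdgfra, a receptor that defines fibroadipogenic cells, fell from 2531 ± 695.0 to 31.9 ± 26.5 normalized reads (-7.25 on the log2 scale, adjusted p 0.000405 by limma), and Tnmd, which marks tenocytes, from 2841 ± 1429 to 6.78 ± 9.43 (-9.47, adjusted p 1.84e-05). Ly6a, another fibroadipogenic marker, was low and not called, at 11.6 ± 11.4 in wild-type and 34.4 ± 18.02 in mfn2-/- libraries (2.08, adjusted p 0.309). Twist2 had 0 reads in every mfn2-/- library, and Tcf21 had 0 in every wild-type library and was below the filter. Antagonist reads per 1000 reads of these markers were 3.43, 4.05, 4.22 and 4.10 in the wild-type libraries and 5.69, 4.57, 6.33 and 7.50 in the mutant libraries, so the ratio was higher in every mutant library. Within wild-type, replicates 3 and 4 had the higher tenocyte sums (63414 and 60587 against 40350 and 41554). Their fibroadipogenic sums were also higher (261676 and 250051 against 212330 and 202269). They had the higher Sfrp2, Wif1, Dkk2, Dkk3 and Fzd4 values and the lower Sfrp4 values, while Sfrp1, Frzb, Fzd7 and Axin2 were not ordered this way. The sort for Dendra2+ CD34- cells under the Pax7 driver is meant to leave out connective tissue and tendon cells, and whether these transcripts came from such cells or from the sorted stem cells cannot be told apart in these libraries.

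Of 12 myogenic markers tested, 4 rose (Myod1, Des, Sdc4 and Vcam1), and the median log2 change of the list was 0.18. The sum over all 12 was 12567 to 17619 in wild-type and 32387 to 43987 in mfn2-/- libraries, most of the difference coming from Sdc4 (4271 ± 1529 to 17473 ± 3953) and Des (2156 ± 888 to 7969 ± 2942). Mural markers (8 tested) had 1 higher and 2 lower, Schwann cell markers (5 tested) 0 higher and 2 lower, and of the 9 endothelial and 5 macrophage and leukocyte markers tested 0 were called by limma, edgeR or DESeq2 and 0 had an unadjusted p under 0.05.

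**Figure D4:**
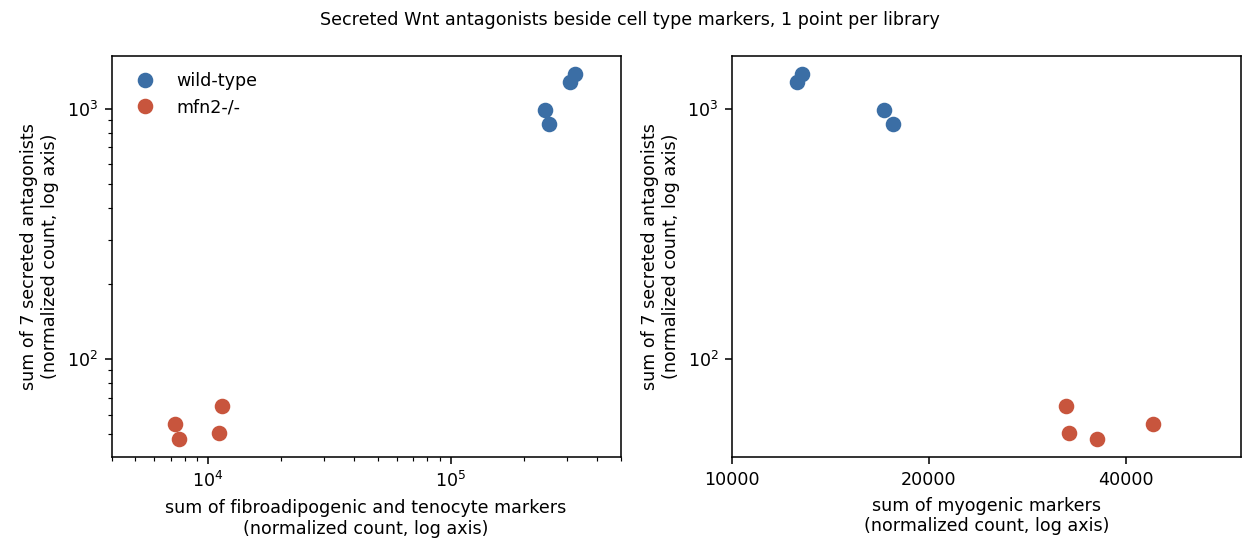
Sum of the 7 secreted antagonists (vertical, log axis) against the sum of fibroadipogenic and tenocyte markers (left) and of myogenic markers (right, both log axes), in normalized read counts with 1 point per library. Wild-type libraries (blue) lie between 866 and 1373 on the vertical axis and mfn2-/- libraries (red) between 47.9 and 64.7, and the horizontal order of the groups is reversed between the panels.

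The rest of the pathway was read from lists of ligands, receptors, regulators and targets. Of the 109 listed genes 105 were in the table and 73 were tested, of which 3 were called higher and 6 lower. That share, 12.3%, was close to the 10.4% of all genes tested. The median log2 change of the 73 genes was -0.45.

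Among the ligands, 5 of 16 genes in the table were tested and 1 fell. Wnt5a, a ligand of beta-catenin-independent signalling, measured 31.8, 10.4, 68.6 and 82.3 in wild-type and 0, 2.37, 0 and 0 in mfn2-/- libraries, where the value of replicate 2 came from 3 reads. Its limma adjusted p was 0.018, and it was 0.0653 and 0.0637 without replicate 3 or 4 of the wild-type and 0.0508 and 0.0514 without replicate 1 or 3 of the mutant. The call of Wnt5a was also lost with no filter and with the replicate block, 6 of 20 settings in all. Neither of 2 secretion genes was called by limma, edgeR or DESeq2, and 0 had an unadjusted p under 0.05. Wls, which carries Wnt proteins to the surface, was the more abundant with 254 ± 57.6 and 223 ± 79.6 normalized reads.

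Of the other receptors and co-receptors, 12 were tested and 0 were called by limma, while 4 had an unadjusted p under 0.05, and edgeR and DESeq2 each called 1. Lrp6, the most abundant, measured 2004 ± 210.6 and 1782 ± 178.4, a log2 change of -0.17 (limma adjusted p 0.577). The R-spondin axis, which tunes the number of Frizzled receptors at the surface, had 2 tested genes, with 0 called by limma, edgeR or DESeq2 and 0 at an unadjusted p under 0.05. Znrf3, a ligase that removes Frizzled receptors and the most abundant of them, measured 171 ± 34.5 and 124 ± 82.9. It had 0 reads in mfn2-/- replicate 4. The ligands Rspo1 to Rspo4 were all below the filter.

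Of 5 other antagonists tested, 2 fell. Igfbp4, an insulin-like growth factor binding protein that also blocks Frizzled and Lrp6, fell from 2158 ± 168.2 to 776 ± 80.3 normalized reads (-1.48 ± 0.17 on the log2 scale, adjusted p 9.86e-05 by limma) and passed in all 21 settings. Apcdd1, a membrane protein that binds Wnt and Lrp5, fell from 161 ± 46.5 to 25.3 ± 29.2 (log2 change -3.70, adjusted p 0.0458). That call was lost in 13 of 21 settings, among them the fit without any 1 wild-type library (0.089 to 0.113) and without mfn2-/- replicate 1 (0.0738) or 2 (0.0618). Apcdd1 had 0 reads in mfn2-/- replicate 4, and its log2 change was -2.50 without that library. The other 3 tested genes, named here after their values were seen, were not called. Kremen1 was higher in every mfn2-/- library (786 to 882) than in any wild-type library (575 to 656). Its log2 change was 0.42 (limma adjusted p 0.149). Sfrp5 and Tpbg were lower, at -2.22 and -1.97 (limma adjusted p 0.204 and 0.330), and their groups overlapped.

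In the cytoplasm, 15 genes were tested, 2 rose and 1 fell. Csnk1a1 and Csnk1d encode casein kinase 1 isoforms, the first of which primes beta-catenin for destruction. Csnk1d rose from 844 ± 259.4 to 1974 ± 465.1 (1.24 ± 0.24 on the log2 scale, adjusted p 0.00548 by limma) and Csnk1a1 from 835 ± 154.4 to 1842 ± 701.7 (1.09, SE 0.24, adjusted p 0.0119). Dvl3, a Dishevelled adaptor that carries the signal from Frizzled, fell from 621 ± 359.8 to 185 ± 41.2 (-1.62, SE 0.35, adjusted p 0.0102). Beta-catenin itself, Ctnnb1, named here after its values were seen, measured 1159 ± 95.03 and 1079 ± 99.01 and was not called (-0.10, adjusted p 0.749). Antisense genes overlap Csnk1d (Gm28192), Dvl3 (Gm16618) and Wnt5a (Gm2670), whose reads may be shared with them.

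Of 11 TCF/LEF factors and partners tested, 0 were called by limma, edgeR or DESeq2 and 0 had an unadjusted p under 0.05. Tle3, a co-repressor and the most abundant of them, measured 1315 ± 461.9 and 1090.4 ± 127.8. Of 11 tested feedback and target genes 1 rose and 1 fell. Cd44, a hyaluronan receptor, rose from 401 ± 92.2 to 819 ± 277.3 (1.00 on the log2 scale, adjusted p 0.0347 by limma), and Nkd1, an inhibitor induced by the pathway, fell from 63.7 ± 15.2 to 6.49 ± 7.50 (-4.08, adjusted p 0.0457). The call of Cd44 was lost in 9 of 21 settings, with adjusted p of 0.0547 to 0.109 without wild-type replicate 1, 3 or 4 or mfn2-/- replicate 2, 3 or 4. That of Nkd1 was lost in 12 of 20, with 0.0781 to 0.126 without any 1 wild-type library and 0.103 without mfn2-/- replicate 1. Of 10 tested planar polarity genes, Daam2 fell from 586 ± 277.8 to 42.5 ± 39.03 (-4.82, adjusted p 0.0134, 0.0508 without wild-type replicate 3). The call of Daam2 was lost in 3 of 21 settings. Daam2 had 0 reads in mfn2-/- replicate 4, and its log2 change was -3.41 without that library.

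**Figure D5:**
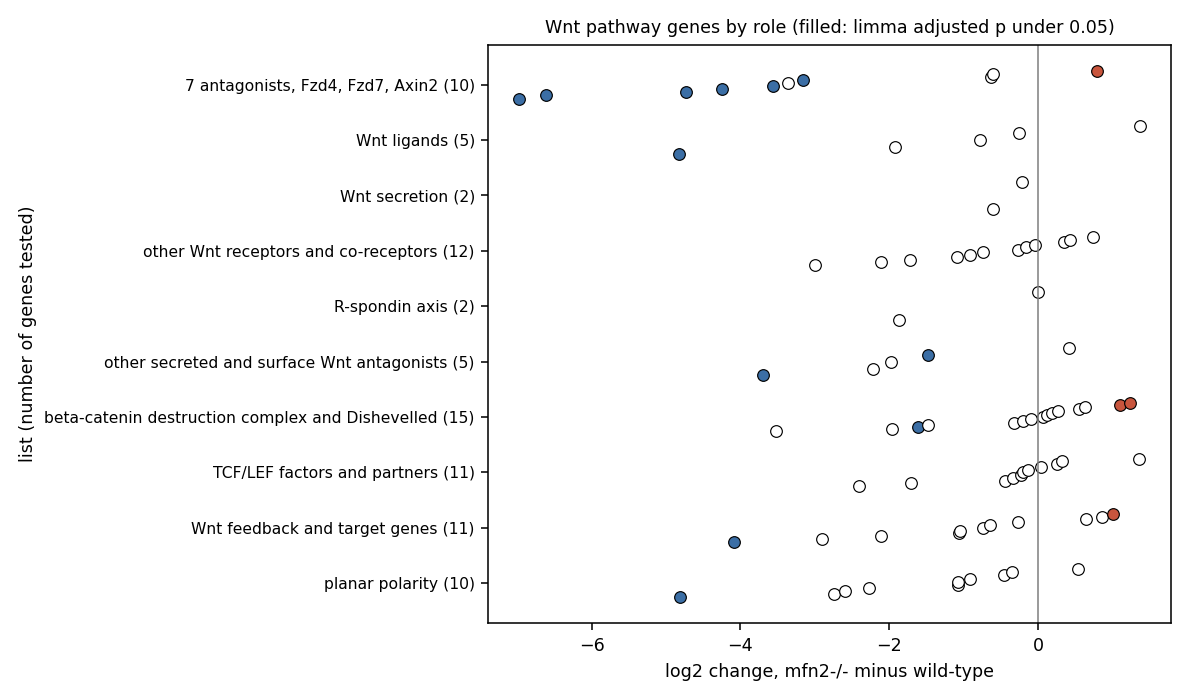
Log2 change (mfn2-/- minus wild-type, horizontal axis) of each tested gene by list, with 1 point per gene, filled where the limma adjusted p was under 0.05. The top row holds the 7 antagonists, Fzd4, Fzd7 and Axin2, with 7 filled points, and the 9 rows below hold 9 filled points among 73 genes.

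The genes most like Sfrp2 and Fzd4, the antagonist and the receptor with the highest level per length over the 8 libraries, were found by Pearson correlation of log2(normalized count + 1). This is a description over 8 libraries that share the difference between genotypes. For Sfrp2 they were Itga4 (r = 0.995), Nfatc4 (0.986), Arnt2 (0.985), Pcdh7 (0.982) and Gdf10 (0.978). For Fzd4 they were Ktn1 (0.977), Trim36 (0.966), Zfml (0.962), Sox4 (0.959) and Pnrc2 (0.958).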

How the data were processed

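The authors sequenced stranded total RNA libraries of ASCs after sorting. The submitters' processing notes name Trim Galore, HISAT2, featureCounts, DESeq2 and the mm9 genome, without versions, and the annotation is not given in the sources used here. Each deposited column holds a linear signal, the normalized read count of every gene. In each column 100% of values were whole multiples of 1 step (tolerance 0.01 reads), so whole reads were recovered by dividing by it. Depth was 1880464 to 7508215 reads, so weak genes are least precise in wild-type replicate 1 and mfn2-/- replicate 4. The latter had 2269009 reads in only 9646 genes, the fewest genes of the 8 libraries. Wild-type replicate 1 had reads in 12613 genes from a lower depth. Reads without molecular identifiers may be amplified copies.

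Groups and replicate numbers came from sample titles. Genes with a mean of at least 10 (11754) were tested with limma 3.58.1 (R 4.3.3) after adding 1 and taking log2, with the variance following intensity. Among the other pathway genes called, Wnt5a (mfn2-/- mean 0.593) and Nkd1 (6.49) passed this filter only through their wild-type values. The test had no covariates and was two-sided, with Benjamini-Hochberg adjustment at 0.05. Log2 changes are differences between group means of these log2 values, so they differ from the log2 ratio of the printed means. Adding 1 gives weak genes smaller changes than a pseudocount of 0.1 does (for Wif1, -6.61 against -8.41). Exact permutation tests used SciPy 1.17.1 in Python 3.11.15. For the 21 alternatives the pseudocount was 0.1 or 10, the filter was dropped or raised to a mean of 50, and the other changes were 3 other scalings, no trend, library weights, the replicate number as a block, Y-linked reads as a term, edgeR 4.0.16 and DESeq2 1.42.0 on recovered reads, and each library left out. The tests were also run on simulated counts with changes of a single size, smaller than the falls of the antagonists. That run cannot support the calls made here. edgeR called 1158 genes and DESeq2 1738, against 1217 by limma. Coordinates and exon lengths are from GENCODE M21 (GRCm38), not the build of the counts. The naming rule took all 10 genes, up to 3 called genes per direction and pathway list by abundance, the most abundant gene of lists without calls, and 5 like genes each for 1 antagonist and 1 receptor. The genes and lists were chosen with earlier results of these data known.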

Additional observations from a re-analysis of the deposited data

Results flagged for a closer look

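Dixon's test at the 95% level was applied to the 4 libraries of a genotype for 46 sets of values and singled out 1 library in 6 of them. By chance it would do so in about 1 in 20 sets of untied values. Sfrp1 was 37.3 normalized reads in replicate 2 of the wild-type, while the others held 118 to 132. Sfrp2 was 36.4 in wild-type replicate 1, from 16 reads, against 284 to 307. Frzb was 6.32, Dkk3 7.11 and Wnt5a 2.37 in mfn2-/- replicate 2, from 8, 9 and 3 reads, each with 0 in the other mfn2-/- libraries. With 3 values tied at 0 any single value above 0 is singled out, so these 3 sets were bound to be, and the chance rate does not apply to them. Csnk1a1 was 2890 in mfn2-/- replicate 4 against 1399 to 1550 in the other mfn2-/- libraries.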

How the results depend on the processing

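The sign of all 10 differences held in every alternative that tested the gene. The count of 6 antagonists called lower was 3 with a pseudocount of 0.1 and ran from 2 (without wild-type replicate 3) to 6 when single libraries were left out, and it was 3 without wild-type replicate 4. Fzd4, the 1 gene called higher, gave 0 calls with no filter, quantile normalization, no intensity trend and the replicate block, and from 0 to 1 when single libraries were left out. The replicate block also took Sfrp1 to a limma adjusted p of 0.0664. Deviations of same-numbered libraries had correlations of -0.11 to 0.04, and those of differently numbered libraries -0.06 to 0.12. These values show no sign of pairing by number, but such correlations cannot settle whether the libraries were paired. The count of 1217 genes was 633 with no intensity trend and 3037 with library weights, and ran from 671 to 1331 when single libraries were left out. The 6 other pathway genes called lower became 3 with a pseudocount of 0.1, 3 with no filter, 2 with no intensity trend and 17 with library weights, and ran from 2 to 10 when single libraries were left out. The 3 called higher became 5 with a mean of at least 50, with equal totals, with Y-linked reads as a term and with DESeq2, 7 with upper-quartile scaling, 0 with no intensity trend and 8 with library weights, and ran from 2 to 3 when single libraries were left out. Upper-quartile scaling moved the median gene by 0.20 and quantile normalization by 0.30 on the log2 scale, and the share of calls that were higher went from 38.5% to 57.5% with the former, 17.9% with no intensity trend and 46.0% with library weights. The causes were not tested. Low read numbers limit the precision of the antagonists in the mutant, where 13 of 28 values rested on 3 reads or fewer. Replicates 1 to 4 of the mutant held 3, 1, 4 and 5 such values, and wild-type replicate 1, the shallowest library, held 0.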
